A study of Bos taurus with 20 samples.

Results

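The oxidative phosphorylation subunits are the nuclear-encoded proteins of complexes I to V of the inner mitochondrial membrane. The genes were found by their symbols in the platform annotation of an Affymetrix array for cattle: NDUF genes of the A, B, C, S and V classes for complex I, SDHA to SDHD for complex II, UQCR genes and CYC1 for complex III, COX4 to COX8 genes for complex IV and ATP5 genes for complex V. The rule found 80 genes among the 9155 genes with a probe set of 1 symbol, measured by 101 probe sets. Each gene was read from its probe set with the highest mean, and all 80 passed the filter on dim probe sets. Complex I held 37 of the genes, complex II 4, complex III 9, complex IV 13 and complex V 17.

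In this pathway complexes I and II pass electrons from NADH and succinate to ubiquinone, complex III passes them to cytochrome c and complex IV passes them to oxygen. Complexes I, III and IV pump protons across the inner membrane, and complex V, the ATP synthase, lets them return and makes ATP. Muscle depends on the pathway for sustained work, and slow fibres carry more mitochondria than fast glycolytic ones. Subunits of the complexes that mitochondrial DNA encodes are outside the rule.

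The study compared Musculus longissimus dorsi, the long muscle of the back, between bulls of high and of low content of intramuscular fat (IMF), which lies between the muscle fibres. Each group held 10 bulls from the F2 generation of a Holstein x Charolais cross, with 1 array of total RNA per bull and no treatment named in the labels. In each group 5 animals had an S before the number in their title and 5 had none, so the title series could be compared as well. The labels give no meaning for the S, no age and no criterion for high and low IMF. Values are log2(intensity + 1), and a difference is high minus low IMF or S minus other animals on that scale.

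Array medians ran from 51.6 to 67.6, and high IMF replicates 6 and 9, both S, were lowest. Prokaryotic spike control probe sets averaged 9.02 to 9.78 log2 units in the S arrays and 9.87 to 10.10 in the others, so the arrays of the 2 series did not overlap. Skeletal muscle markers were bright in every array, with a mean level of 13.66 to 13.92. The level of adipocyte markers ran from 6.74 to 10.53 in S and from 5.89 to 8.22 in the others, and 10 of 10 tested adipocyte genes rose in S. Fewer cells of a type and less RNA per cell cannot be told apart in bulk tissue.

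The subunit genes were among the brighter and steadier probe sets. Their mean log2 values ran from 6.04 to 13.36 with a median of 12.27, and 50 of 80 lay above 12, while all probe sets tested had a median of 7.32. The SD between the 5 animals of 1 IMF group and title series, averaged over those 4 cells, had a median of 0.16 over the 80 genes and of 0.25 over all 14409 probe sets tested.

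No subunit gene passed the test between high and low IMF muscle. With limma and Benjamini-Hochberg adjustment over all probe sets, 0 of 80 genes passed an adjusted p of 0.05, and 0 had an unadjusted p under 0.05. The unpaired t-test on the same values also called 0 members after adjustment. Among all probe sets 0.0% passed the adjusted threshold and 7.34% had an unadjusted p under 0.05. The lowest adjusted p of a member was 0.72, for NDUFA5. Differences ran from -0.13 for NDUFA3, a membrane arm subunit of complex I, to 0.16 for NDUFA4L2, and the median was -0.03. Their 95% limits show what the 20 arrays allow: for 65 of 80 genes they lay within 0.25 log2 units of 0 on both sides, a change of at most 18.9%. The widest limits reached -0.40 for NDUFA3 and 0.41 for NDUFA4L2.

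The median IMF difference of complex I was -0.02, of complex II -0.02, of complex III -0.05, of complex IV -0.05 and of complex V -0.04. Of the 80 genes 60 (75.0%) had a difference below 0, and so did 59.8% of all probe sets tested, whose median was also -0.03. With every array centred on its median, 35 of 80 members and 46.7% of all probe sets lay below 0, and the median of the members was 0.01. Without the 2 arrays of lowest signal 27 of 80 members lay below 0. The direction of the members as a group therefore turned with the scaling and with those 2 arrays.

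**Figure D1:**
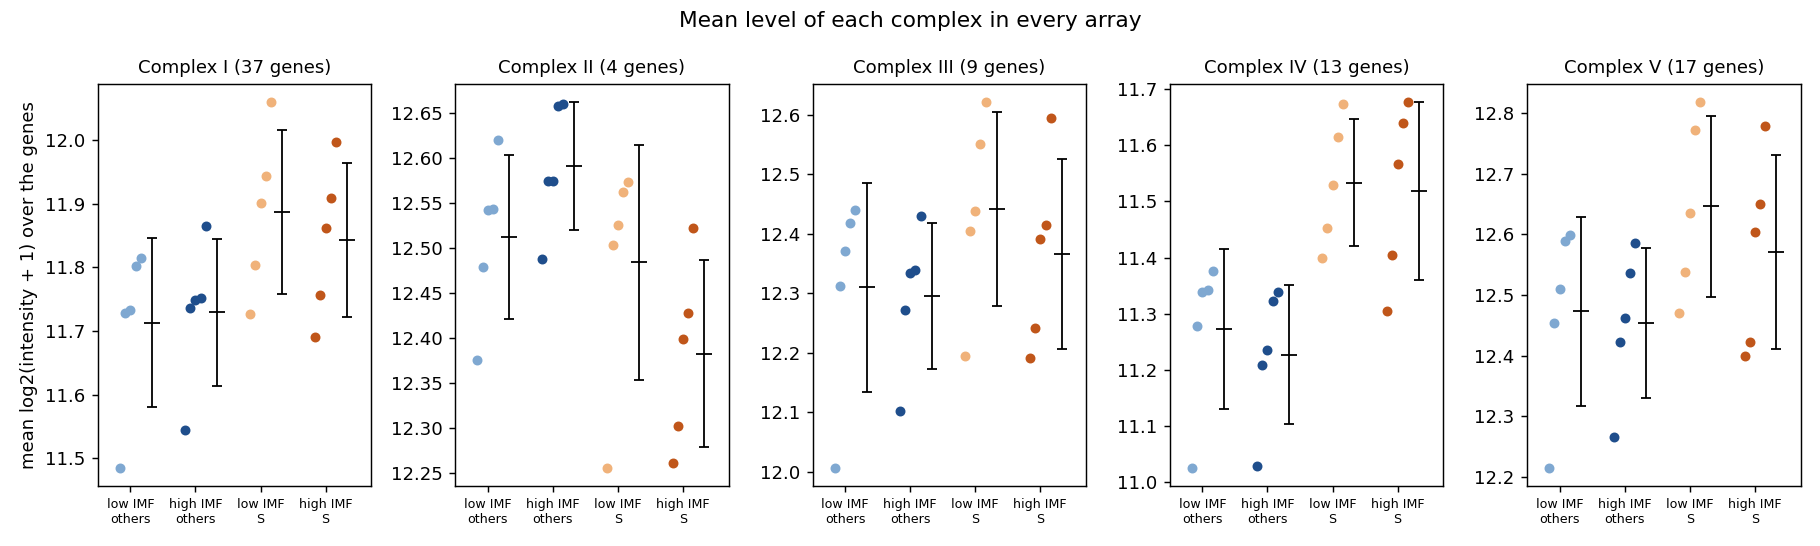
Mean log2(intensity + 1) over the genes of each complex (vertical axis, 1 panel per complex) in every array, for low and high IMF animals of the other and the S titles. Points are arrays and bars are the mean ± SD of 5 arrays. High and low IMF points overlap in each complex, and complex IV is the panel where the series are farthest apart, at 11.30 to 11.68 in S and 11.03 to 11.38 in the others.

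By IMF group, the values of single genes overlapped over most of their range. NDUFA5, an accessory subunit of the matrix arm of complex I, ran from 10.63 to 10.96 in high IMF (median 10.79) and from 10.46 to 10.89 in low IMF (median 10.71), a difference of 0.10 (SE 0.06). In 7 of 10 high IMF arrays it lay above the low IMF median. The mean over the probe sets of NDUFA5 gave -0.05, so its direction depends on the probe set. NDUFA3 ran from 11.05 to 12.23 in high IMF (median 11.78) and from 11.34 to 12.47 in low IMF (median 11.88), with a difference of -0.13 (SE 0.13). ATP5F1B, the catalytic beta subunit of ATP synthase, ran from 13.01 to 13.47 in high IMF (median 13.32) and from 13.18 to 13.49 in low IMF (median 13.41), with a difference of -0.09 (SE 0.07).

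The IMF comparison was also made within each title series. In S animals 60 of 80 members had a difference below 0 with a median of -0.06, against 67.5% of all probe sets. In the other animals 43 of 80 did with a median of -0.01, against 47.4% of all probe sets. The test of the difference between the series passed for 0 of 80 members, and 0 had an unadjusted p under 0.05, against 5.34% of all probe sets. The members with the smallest p in that test were COX7A2, a complex IV subunit, with a high minus low IMF difference of 0.18 in S and -0.13 in the others (p = 0.10, limma), NDUFA3 with -0.33 and 0.06 (p = 0.12, limma), and NDUFS8, an iron-sulfur subunit of complex I, with -0.08 and 0.17 (p = 0.12, limma). The lowest adjusted p of a member in that test was 0.87.

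Many subunit genes differed by title series. Of 80 genes 47 passed, 37 higher and 10 lower in S. Among all probe sets 68.3% passed, 33.4% higher and 34.8% lower, so a call by title series is common on these arrays. The members' share of calls was 58.8%, with 46.2% higher and 12.5% lower. By complex the share called either way was 51.4% in I, 25.0% in II, 66.7% in III, 84.6% in IV and 58.8% in V. The median difference was 0.15 over the members and -0.003 over all probe sets, and 59 of 80 members had a difference above 0. With median-centred arrays 55 members (68.8%) passed, 48 higher and 7 lower, and the median was 0.22. Among all probe sets 69.6% passed on that scale, 37.7% higher and 31.9% lower, and the median was 0.06. The SD of the differences was 0.30 over the members and 0.62 over all probe sets. The labels do not explain the 2 series, so a difference between the animals and one between their arrays cannot be told apart.

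In 13 of 80 members the S arrays and the others did not overlap, 12 higher and 1 lower in S. Of all 14409 probe sets tested 19.6% did not overlap, 1496 higher and 1335 lower in S. The members higher, chosen here after their values were seen, were NDUFA2, NDUFA7, NDUFA11, NDUFB7, NDUFB11, NDUFS5, NDUFS8, CYC1, UQCRC1, COX8A, ATP5F1D and ATP5ME. The 1 member lower was NDUFS1. The spike controls and the adipocyte markers moved with the title series too. So did the level of red blood cell transcripts, at 5.70 to 6.46 in S and 5.34 to 5.68 in the others. The level of macrophage markers was 6.89 to 7.30 in S and 5.95 to 6.95 in the others. In each of these lists 2 of 3 tested genes were called higher, beside 68.3% called and 33.4% higher among all probe sets. With 3 genes the counts are too few to set a list apart. The part of the controls and marker lists in the differences of the subunits was not tested.

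**Figure D2:**
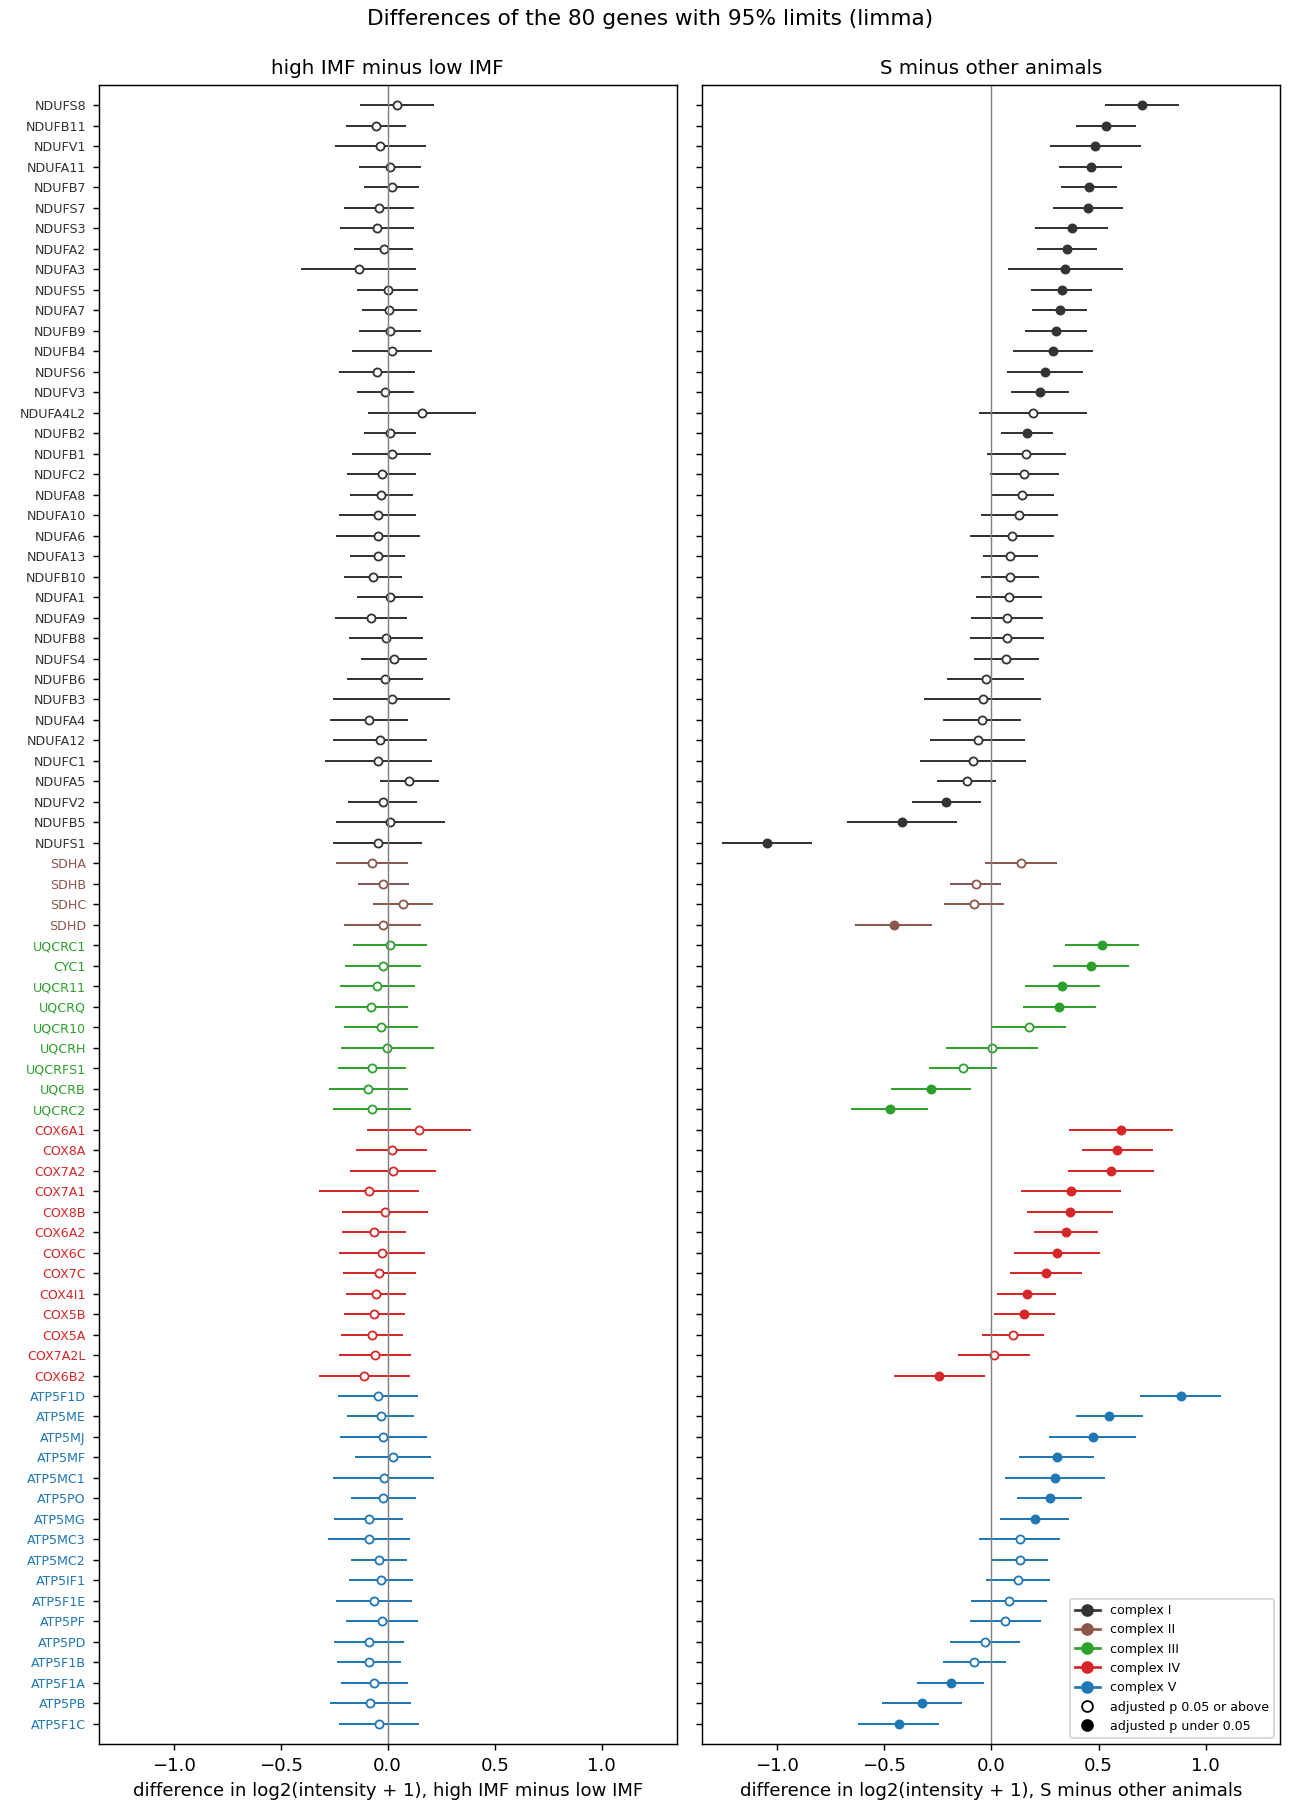
Difference in log2(intensity + 1) of each of the 80 genes with its 95% limits, high minus low IMF on the left and S minus other animals on the right, coloured by complex. Filled points have an adjusted p under 0.05 (limma). On the left every point is open and lies between -0.13 and 0.16, and on the right 47 points are filled, from -1.05 for NDUFS1 to 0.88 for ATP5F1D.

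In complex I, 16 of 37 genes were higher in S and 3 were lower. NDUFS1, the largest subunit of the complex and a carrier of iron-sulfur clusters in its matrix arm, fell furthest of all members. It ran from 10.35 to 11.07 in S (median 10.79) and from 11.39 to 11.95 in the others (median 11.89). The S arrays all lay below the others, and the difference was -1.05 (SE 0.10, adjusted p = 1.6e-08, limma), or 2.07-fold lower. Another probe set of NDUFS1 gave -1.52 and the dimmest one, which was not tested, gave -0.40, so the direction did not depend on the probe set.

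NDUFS8, an iron-sulfur subunit of the matrix arm, went the other way. It ran from 11.45 to 11.96 in S (median 11.70) and from 10.75 to 11.32 in the others (median 10.96). The arrays did not overlap, and the difference was 0.70 (SE 0.08, adjusted p = 2.5e-07, limma), or 1.63-fold higher. NDUFB11, a subunit of the membrane arm, ran from 11.92 to 12.36 in S (median 12.20) and from 11.50 to 11.76 in the others (median 11.66). It rose by 0.53 (SE 0.07, adjusted p = 4.8e-07, limma).

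The matrix arm, which takes electrons from NADH, had 8 of 15 genes higher and 2 lower, and the membrane arm, which pumps protons, had 8 of 20 higher and 1 lower, beside 33.4% higher and 34.8% lower among all probe sets. With median-centred arrays the counts were 8 and 1 in the matrix arm and 13 and 1 in the membrane arm. On that scale 37.7% of all probe sets were called higher and 31.9% lower. The order of the arms by share called higher therefore turned with the scaling. The median difference was 0.23 in the matrix arm and 0.15 in the membrane arm. The members called lower beside NDUFS1, named here after their values were seen, were NDUFV2, an iron-sulfur subunit of the matrix arm (-0.21, SE 0.08), and NDUFB5 of the membrane arm (-0.42, SE 0.12). NDUFV3, a matrix arm subunit, rose by 0.23 (SE 0.06), and NDUFA3 rose by 0.34 (SE 0.13), a call lost without high IMF replicate 1 and low IMF replicate 2 together (adjusted p = 0.085, limma). NDUFA4 and NDUFA4L2 carry complex I symbols, although NDUFA4 is now placed with cytochrome c oxidase. Neither passed, with -0.05 for NDUFA4 and 0.19 for NDUFA4L2. The second probe set of NDUFA4L2 gave -1.05 and passed (adjusted p = 0.0017, limma). The mean over both probe sets gave -0.43 and passed as well (adjusted p = 0.015, limma), so no direction holds for that gene.

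In complex II, which oxidises succinate, 0 of 4 genes were higher in S and 1 was lower. SDHD, a membrane anchor of the complex, ran from 11.64 to 12.27 in S (median 11.95) and from 12.26 to 12.53 in the others (median 12.43). The series met only at the edge, since all 10 S arrays lay below the median of the others, and the difference was -0.46 (SE 0.08, adjusted p = 6.9e-05, limma). SDHC, the other anchor, differed by -0.08 (SE 0.07). SDHB, the iron-sulfur subunit, differed by -0.07 (SE 0.05), and SDHA, the flavoprotein that binds succinate, by 0.14 (SE 0.08). Neither these nor SDHC passed on the deposited scale, and SDHA passed with median-centred arrays (adjusted p = 0.035, limma).

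In complex III, 4 of 9 genes were higher and 2 lower, a share called of 66.7%, near the 68.3% among all probe sets. The core proteins UQCRC1 and UQCRC2, which lie side by side in the complex, had opposite signs. UQCRC1 ran from 11.54 to 11.96 in S (median 11.74) and from 10.91 to 11.51 in the others (median 11.25), a difference of 0.51 (SE 0.08, adjusted p = 1.2e-05, limma). UQCRC2 ran from 11.36 to 11.96 in S (median 11.59) and from 11.80 to 12.30 in the others (median 12.13), a difference of -0.48 (SE 0.09, adjusted p = 5.1e-05, limma). All S arrays were below the median of the others for UQCRC2 and above it for UQCRC1.

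The probe sets of the core proteins did not bear equally on this contrast. A second probe set of UQCRC1 gave 0.77, with the same sign, while a second and dimmer probe set of UQCRC2 gave 0.78, against -0.48. With the mean over the probe sets UQCRC2 was higher in S by 0.15 (adjusted p = 0.032, limma). CYC1, the cytochrome c1 subunit that hands electrons to cytochrome c, ran from 11.94 to 12.40 in S (median 12.21) and from 11.41 to 11.92 in the others (median 11.78). It rose by 0.47 (SE 0.08, adjusted p = 5.4e-05, limma). UQCRQ, a small subunit, rose by 0.32 (SE 0.08). UQCRB, another small subunit, fell by 0.28 (SE 0.09), and UQCRFS1, the Rieske iron-sulfur protein, differed by -0.13 (SE 0.07) and did not pass. It passed with quantile normalization and without high IMF replicate 1 and low IMF replicate 2 together (adjusted p = 0.034 in both, limma).

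**Figure D3:**
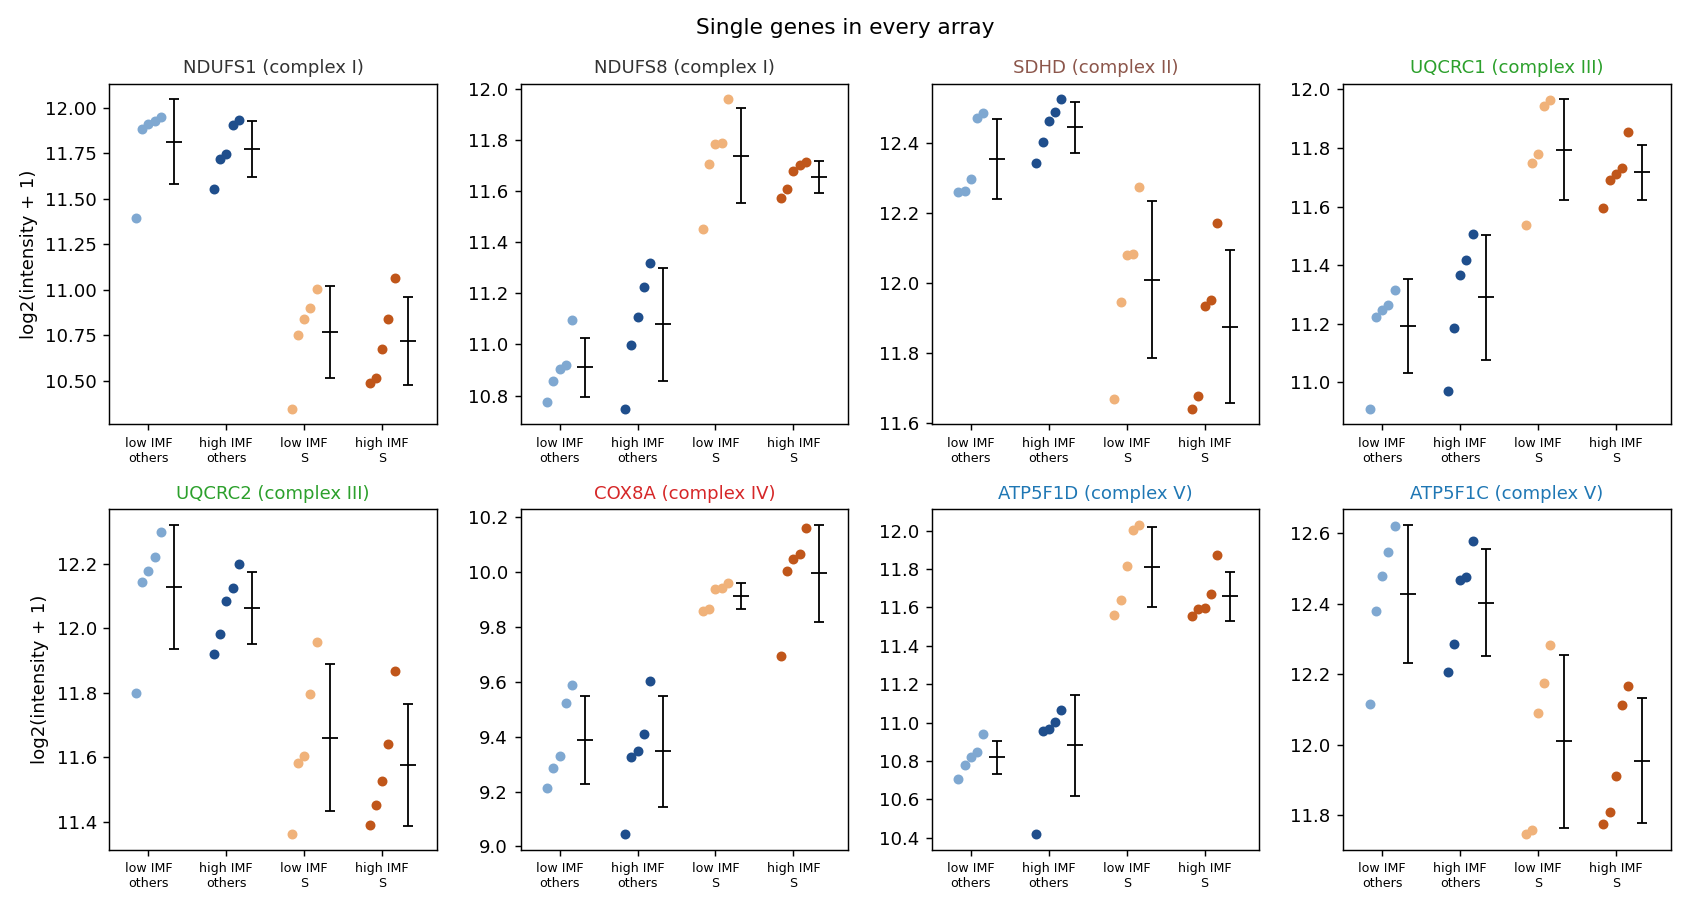
Log2(intensity + 1) of 8 genes in every array (vertical axis, separate scales), for low and high IMF animals of the other and the S titles. Points are arrays and bars are the mean ± SD of 5 arrays. NDUFS8, UQCRC1, COX8A and ATP5F1D lie higher in S, NDUFS1, SDHD, UQCRC2 and ATP5F1C lie lower, and high and low IMF overlap within each series in all 8.

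Complex IV had the highest median difference of the 5 complexes, 0.31, with 10 of 13 genes higher in S and 1 lower. COX8A, a small subunit, ran from 9.69 to 10.16 in S (median 9.95) and from 9.04 to 9.60 in the others (median 9.34). The arrays did not overlap, and the difference was 0.59 (SE 0.08, adjusted p = 1.3e-06, limma). COX7A2, the widely expressed form of subunit VIIa, ran from 9.82 to 10.45 in S (median 10.22) and from 9.23 to 9.90 in the others (median 9.60), a difference of 0.56 (SE 0.10, adjusted p = 3.0e-05, limma). COX6A1, the widely expressed form of subunit VIa, ran from 9.004 to 10.09 in S (median 9.44) and from 8.46 to 9.10 in the others (median 8.78), a difference of 0.61 (SE 0.12, adjusted p = 9.6e-05, limma). In all 3 genes every S array lay above the median of the others. The second probe set of COX6A1 gave 0.15 and did not pass.

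The forms of these subunits found in heart and skeletal muscle rose in S as well. COX6A2 rose by 0.35 (SE 0.07), COX7A1 by 0.37 (SE 0.11) and COX8B by 0.37 (SE 0.09). The second probe set of COX8B gave 0.09 and did not pass (adjusted p = 0.21, limma), so the pair with COX8A rests on the probe set used. COX4I1, a large nuclear-encoded subunit, rose by 0.17 (SE 0.06, adjusted p = 0.027, limma), and this call was lost without any 1 of 4 arrays (high IMF replicate 1 or 8, low IMF replicate 2 or 8; adjusted p up to 0.055), or without the 4 albumin-rich arrays, those with an albumin signal over 2000 (low IMF replicate 3, high IMF replicates 6, 8 and 10; adjusted p = 0.099). COX6B2, best known from testis and dim here, was lower by 0.24 (SE 0.10, adjusted p = 0.037, limma). That call was lost without any 1 of 11 arrays and with median-centred arrays (adjusted p = 0.13). COX5A differed by 0.10 (SE 0.07), did not pass on the deposited scale and passed with median-centred arrays (adjusted p = 0.028, limma). COX7A2L, a factor of respiratory supercomplexes, differed by 0.01 (SE 0.08).

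Whether the widely expressed and the muscle form changed unequally was asked from their log2 difference within each array, in 12 comparisons of 3 pairs. COX8A minus COX8B averaged -2.86 ± 0.23 in S and -3.08 ± 0.19 in the others (SD, n = 10 each), a shift of 0.22 that was not past the threshold after adjustment (two-sided permutation test with 100000 resamples, p = 0.030, adjusted p = 0.18). The shift between series was 0.26 for COX6A1 minus COX6A2 (permutation p = 0.081, adjusted p = 0.24) and 0.19 for COX7A2 minus COX7A1 (permutation p = 0.11, adjusted p = 0.27). High minus low IMF shifts were 0.21, 0.11 and 0.03 for the pairs of subunits VIa, VIIa and VIII (permutation p = 0.17, 0.36 and 0.77). The second probe set of COX6A1 had an IMF difference of -0.02, against 0.14 for the one used. The shifts of the VIa pair therefore rest on the probe set used.

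Within S animals the IMF shift was 0.35 for COX7A2 minus COX7A1, where all 5 high IMF arrays lay above the low IMF median (exact permutation test, two-sided, p = 0.024, adjusted p = 0.18). For COX6A1 minus COX6A2 it was 0.41 (exact permutation p = 0.079, adjusted p = 0.24), and for COX8A minus COX8B 0.14 (exact permutation p = 0.35). In the other animals the same shifts were -0.12, 0.01 and -0.08 (exact permutation p = 0.47, 0.98 and 0.54). None of the 12 passed after adjustment, and the smallest p that 5 against 5 animals allow is 0.0079. Adipocyte markers differed between the same animals: their level, over the 10 of 12 on the array that were tested, ran from 7.90 to 10.53 in high IMF S animals, 6.74 to 9.43 in low IMF S animals, 6.98 to 8.22 in high IMF others and 5.89 to 7.34 in low IMF others. The level of liver transcripts ran from 6.42 to 11.38 in high IMF S animals and from 6.16 to 6.82 in low IMF S animals. In the others it ran from 6.35 to 6.62 in high IMF and from 6.46 to 10.86 in low IMF. High IMF replicates 6, 8 and 10, all S, are among the albumin-rich arrays. The part of adipocyte and liver transcripts in the shifts was not tested.

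**Figure D4:**
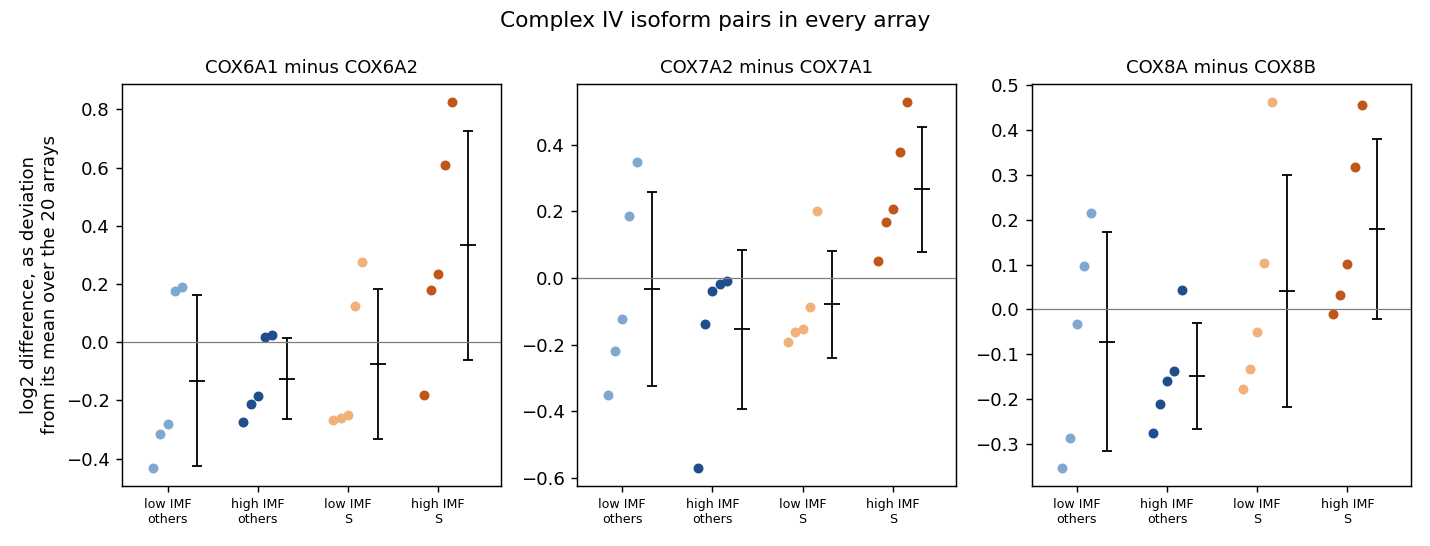
Log2 difference between the widely expressed and the muscle form of complex IV subunits VIa, VIIa and VIII in every array, as deviation from its mean over the 20 arrays (vertical axis), by IMF group and title series. Points are arrays and bars are the mean ± SD of 5 arrays. High IMF S animals have the highest mean in each panel, and no shift passed after adjustment over 12 comparisons.

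In complex V, 7 of 17 genes were higher and 3 lower. ATP5F1D, the delta subunit of the rotating central stalk, rose furthest of all members. It ran from 11.55 to 12.03 in S (median 11.66) and from 10.42 to 11.06 in the others (median 10.89). The arrays did not overlap, and the difference was 0.88 (SE 0.09, adjusted p = 3.8e-08, limma), or 1.85-fold. A second probe set of ATP5F1D, much dimmer, gave -0.57 and passed in the opposite direction, and the mean over both did not pass (adjusted p = 0.16).

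Of the 5 F1 genes 1 passed higher and 2 passed lower, 60.0% called beside 68.3% among all probe sets. ATP5F1C, the gamma subunit of the same central stalk, named here after its values were seen, ran from 11.75 to 12.28 in S (median 12.001) and from 12.12 to 12.62 in the others (median 12.47), a difference of -0.43 (SE 0.09, adjusted p = 2.2e-04, limma). ATP5F1A, the alpha subunit, fell by 0.19 (SE 0.07), while ATP5F1B, with -0.08 (SE 0.07), and ATP5F1E, the epsilon subunit, with 0.08 (SE 0.08), did not pass. Of the peripheral stalk, which holds the catalytic head still, ATP5PB fell by 0.32 (SE 0.09) and ATP5PO rose by 0.27 (SE 0.07). These stalk genes, ATP5F1A and ATP5F1E were also chosen after their values were seen. ATP5IF1, the inhibitor of ATP hydrolysis by the enzyme, did not pass.

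The membrane part of the enzyme, which carries the proton-driven ring, had 5 of 7 genes higher and all 7 above 0, with a median of 0.30. Its share called was 71.4%, all of it higher, beside 68.3% called and 33.4% higher among all probe sets. ATP5ME ran from 12.42 to 12.92 in S (median 12.59) and from 11.79 to 12.30 in the others (median 12.08). The arrays did not overlap, and the difference was 0.55 (SE 0.07, adjusted p = 1.3e-06, limma). ATP5MJ rose by 0.47 (SE 0.10). The genes ATP5MC1, ATP5MC2 and ATP5MC3 encode the same mature ring subunit. ATP5MC1 rose by 0.30 (SE 0.11), a call lost without high IMF replicate 1 and low IMF replicate 2 (adjusted p = 0.098, limma) or without the 4 albumin-rich arrays (adjusted p = 0.058, limma). Of the other ring genes, ATP5MC2 and ATP5MC3, both with 0.13, did not pass on the deposited scale and passed with median-centred arrays (adjusted p = 0.0079 and 0.044, limma). ATP5MG rose by 0.20 (SE 0.08), but its second probe set gave -0.39 and the mean over both -0.10. Its call was lost without those arrays too (adjusted p = 0.070 and 0.052, limma).

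Probe sets of 1 gene disagreed often enough to limit these directions. The 80 genes had 21 further probe sets in 19 genes, and 12 of them had the opposite sign for title series from the one used. Of 14 that were bright enough to be tested 7 had the opposite sign, and of 7 where both probe sets passed 4 did. Over all genes the opposite sign was found for 26.6% of 1945 further tested probe sets and for 14.7% of 1021 where both passed. The files give no probe sequences, so which transcript end or form each probe set reads was not analysed here.

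Within an IMF group and title series, the subunits varied together from animal to animal. After subtraction of the mean of each of the 4 cells, the median correlation over the 3160 pairs of members was 0.65 across the 20 arrays, and 0.64 with median-centred arrays, where 97.9% of pairs were above 0. Over all pairs of tested genes the median was 0.08, or 0.05 with centred arrays. With centred arrays the median over pairs of 1 complex was 0.63 and over pairs from different complexes 0.64. It was 0.59 in complex I, 0.60 in complex II, 0.76 in complex III, 0.56 in complex IV and 0.79 in complex V. All pairs share the same arrays, total RNA and scaling, and these correlations are a description.

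Single members differed in how closely they followed the rest. The median correlation with the other members was 0.79 for ATP5PF of the peripheral stalk and for ATP5IF1, the highest values. It was -0.04 for NDUFA5, the lowest, and 0.32 for COX6A1, 0.35 for NDUFA4L2 and 0.35 for NDUFV3. These 6 members were named after their values were seen.

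The shared deviation was seen in many arrays. With centred arrays 77 of 80 members lay above the mean of their cell in high IMF replicate 3 and 74 in low IMF replicates 5 and 8, and 74 lay below it in high IMF replicate 7 and 73 in low IMF replicate 6. On the deposited scale 50 members lay above it in high IMF replicate 7. In high IMF replicate 6, 76 lay below it on that scale and 67 above it when centred. The direction of these 2 arrays therefore turned with the scaling. The shared deviation was greatest on average in a pair of arrays. In high IMF replicate 1 all 80 members lay below the mean of their cell with centred arrays, by 0.24 on average, and in low IMF replicate 2 it was 78 of 80, by 0.22. Both are animals without S. Their mean member levels were 11.72 and 11.67, against 11.91 to 12.03 in the other 8 arrays of that series. Without both arrays the median correlation with centred arrays was 0.50, with 90.7% of pairs above 0. On the deposited scale 42 members then passed for title series, 31 higher and 11 lower. The share of all probe sets called without both arrays is not given here, so this count is not read as a result about the members.

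**Figure D5:**
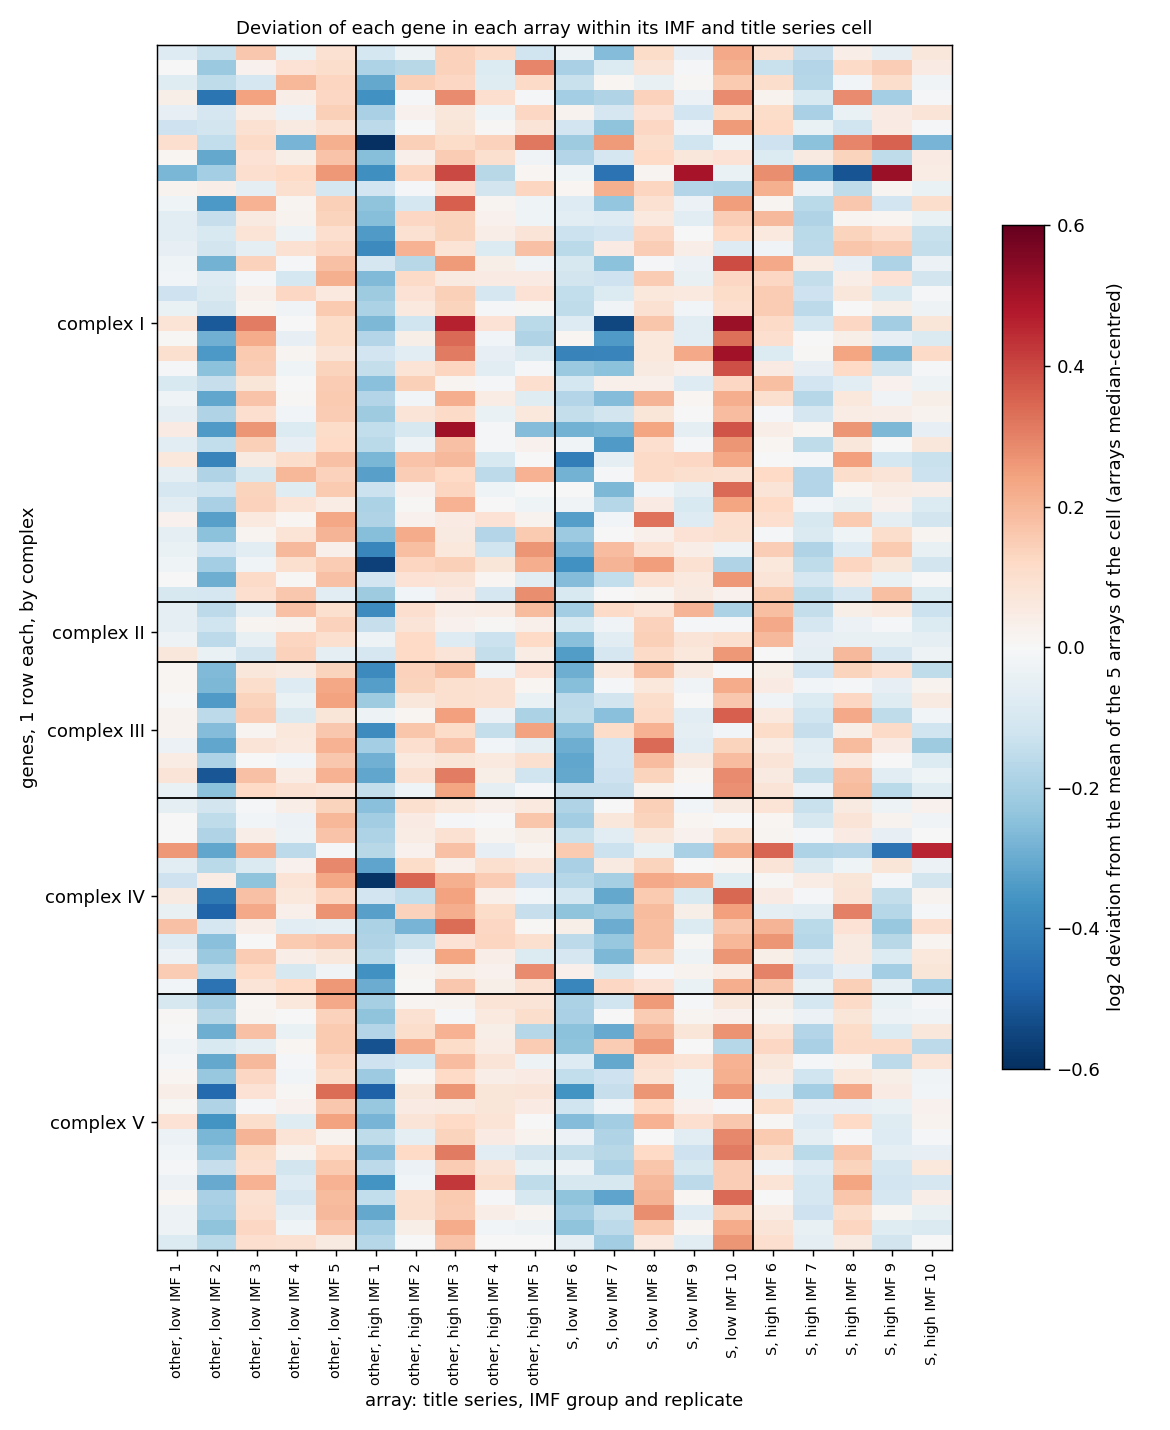
Deviation in log2 units of each gene (1 row each, grouped by complex) in each array (columns, by IMF group and title series) from the mean of the 5 arrays of its cell, with median-centred arrays; red is above and blue below that mean. Many columns are mostly of 1 colour: high IMF replicate 1 and low IMF replicate 2 are blue for 80 and 78 of 80 genes, high IMF replicate 7 for 74 and low IMF replicate 6 for 73, and high IMF replicate 3 is red for 77. On the deposited scale, not drawn here, 50 genes of high IMF replicate 7 lay above that mean.

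Other mitochondrial genes were set beside the subunits from lists. For IMF 0 genes passed in any of them (limma), and 1, the complex III assembly factor BCS1L, had an unadjusted p under 0.05. Counts are of tested genes, beside 68.3% called by title series among all probe sets. Of 10 complex I assembly factors 6 rose in S and 2 fell, and of 20 assembly factors of complexes II to V 12 rose and 3 fell. Of 8 genes that copy and transcribe mitochondrial DNA 1 rose and 4 fell, and of 10 electron carrier genes, mainly of ubiquinone synthesis and the electron transfer flavoprotein, 2 rose and 3 fell. Of 7 nuclear regulators of mitochondrial genes 2 rose and 2 fell. A list of 8 genes held adenine nucleotide and phosphate carriers (SLC25A3 to SLC25A6), VDAC channels (VDAC1 to VDAC3) and CKMT2. Of these 1 rose and 2 fell, and of 10 genes of the cristae and inner membrane 3 rose and 3 fell. The median difference was 0.34 and 0.32 for the assembly factor lists and -0.35 for the mitochondrial DNA list.

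Within the cells, with centred arrays, the members correlated most with the list of carriers, VDAC genes and CKMT2 (median 0.50), the cristae genes (0.49) and the electron carriers (0.48). Without high IMF replicate 1 and low IMF replicate 2 these medians were 0.38, 0.41 and 0.34, so their order depended on those arrays. Across all 20 centred arrays the median was 0.31 for both assembly factor lists, 0.28 for slow fibre markers and 0.24 for fast fibre markers. On the deposited scale it was 0.41 for slow and 0.07 for fast fibre markers, so that contrast depended on the scaling. With centred arrays the median was -0.02 for the nuclear regulators and -0.12 for adipocyte markers. Among single list genes SLC25A3, the mitochondrial phosphate carrier, chosen after its values were seen, had the highest median correlation with the members, 0.74. The lowest of its list, also chosen after its value was seen, was -0.10 for SLC25A5. PPARGC1A, a coactivator of mitochondrial genes, had 0.42 and an IMF difference of -0.43 (SE 0.22, adjusted p = 0.68, limma).

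Fibre type markers were looked at beside the IMF result. All 8 tested slow fibre markers had a difference below 0, with a median of -0.14, beside 59.8% below 0 among all probe sets. None passed, and 2 had an unadjusted p under 0.05 (limma), beside 7.34% of all probe sets. The level of slow fibre markers ran from 12.02 to 13.03 in high IMF and from 12.53 to 12.96 in low IMF, so the groups overlapped. The lowest levels, 12.02 and 12.23, were those of high IMF replicates 6 and 9, the 2 arrays of lowest signal. Of 7 fast fibre markers 5 had a difference below 0 and the median was -0.01. The part of fibre type markers in the IMF values of the subunits was not tested.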

How the data were processed

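Total RNA of 20 bulls was hybridised to 1 array each. Per the submitters' processing notes, GCOS 1.1.1 and Affymetrix Expression Console 1.1 were used. The authors deposited linear intensity values per probe set. For the summary of probes and the scaling of arrays, the sources used here give no method.

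The table held 24128 probe sets, of which 112 controls were removed. Values were taken as log2(intensity + 1), which understates changes of dim probe sets. The 40% of the rest with the lowest mean were left out, and 14409 were tested with limma 3.58.1 in R 4.3.3, with IMF content and title series in 1 model (two-sided, Benjamini-Hochberg adjustment at 0.05), an interaction model, and IMF contrasts within each series. The number of arrays limits the precision. The code was tested on simulated data. The series text names a paired t-test, but the labels pair no animals, so the fits were unpaired.

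The members, lists and tests were chosen with earlier results of these data known. Named members are the 3 with the smallest p per complex and comparison, those with extreme differences, the 3 with the smallest interaction p, and isoforms or SDH genes, with others marked. All 101 member probe sets matched RefSeq by gene identifier. Sequences and coordinates were not analysed here.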

Additional observations from a re-analysis of the deposited data

Results flagged for a closer look

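In groups of 10 arrays, 86 sets of values (the named members and the 5 complex levels in high and in low IMF) were searched for a lone highest or lowest value whose gap to the nearest, as a share of the whole range, exceeds Dixon's critical value. For values of 1 normal population chance alone gives about 4.3 such values, and 2 were found. Each group pools 5 S and 5 other arrays, which differ in many members, so the 4.3 cannot be set against the 2. NDUFA4L2 was at 6.58 log2 units in low IMF replicate 9, with the nearest array at 6.07 and a group median of 6.0003. SDHA was at 11.56 in high IMF replicate 1, with the nearest array at 11.86 and a group median of 11.89. That array is the one in which all 80 members lay below the mean of their cell.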

How the results depend on the processing

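Results were computed again under 10 other settings, with each of 20 arrays left out, and without high IMF replicate 1 and low IMF replicate 2 together, which was chosen after seeing the data. No member passed for IMF or the interaction under any setting that gives those tests. Members called for title series ran from 39 to 55, and the number of all probe sets called ran from 8111 to 12549. The number of members with an IMF difference below 0 moved from 60 to 35 with centred arrays and to 27 without the 2 arrays of lowest signal. Leaving out 1 array gave 46 to 72 members below 0 and 44 to 50 called for title series, beside 9566 to 9811 of all probe sets. It gave 0 to 1 probe sets called for IMF, the 1 without high IMF replicate 4.

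Signs turned mostly in differences near 0. With centred arrays the IMF difference became 0.020 for ATP5MC1, 0.0077 for ATP5ME, 0.020 for ATP5MJ, 0.029 for COX8B, 0.018 for CYC1, 0.028 for NDUFV3, 0.019 for SDHB and 0.017 for SDHD, and the title series difference 0.037 for ATP5PD and 0.020 for NDUFA4. With quantile normalization IMF gave 0.011 for COX4I1, 0.010 for COX8B, 0.026 for SDHB and 0.0014 for SDHD. Without the 2 arrays of lowest signal IMF gave 0.036 for ATP5MC1, 0.0023 for ATP5MC2, 0.0045 for ATP5ME, 0.033 for ATP5MJ, 0.0032 for COX7A1, 0.027 for COX8B, 0.021 for CYC1, 0.0033 for NDUFA4, 0.016 for NDUFS1, 0.0055 for SDHB and 0.055 for SDHD, and title series 0.011 for ATP5PD and 0.043 for NDUFA4. Without the arrays with an albumin signal over 2000 IMF gave -0.070 for COX7A2, -0.030 for COX8A, 0.00061 for COX8B, 0.018 for CYC1 and 0.0092 for NDUFV3, and title series -0.057 for COX7A2L, which was -0.036 without high IMF replicate 1 and low IMF replicate 2. The mean over all probe sets of a gene gave, for IMF, 0.021 for COX8B and -0.047 for NDUFA5, and for title series -0.095 for ATP5MG, 0.086 for NDUFA4, -0.43 for NDUFA4L2 and 0.15 for UQCRC2. The cause was not tested.

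Leaving out 1 array turned the IMF sign of ATP5F1D (-0.073 to 0.0028), ATP5MC1 (-0.080 to 0.027), ATP5ME (-0.066 to 0.0025), ATP5MJ (-0.066 to 0.015), COX7A2 (-0.015 to 0.071), COX8A (-0.0066 to 0.059), COX8B (-0.068 to 0.018), CYC1 (-0.062 to 0.010), NDUFV3 (-0.038 to 0.0096), SDHD (-0.056 to 0.015) and UQCRC1 (-0.027 to 0.043), and the title series sign of COX7A2L (-0.016 to 0.040). For title series ATP5MC2 passed without high IMF replicate 4, 6 or 9 and NDUFA5 without low IMF replicate 7. No paired analysis was possible because replicate numbers follow accession order and the labels pair no animals. Signals of the files carry no detection call, so background limits could not be set.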
